A study of Sorghum bicolor with 6 samples.

Results

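The genes described here are the secondary wall cellulose synthase (CESA) genes of sorghum (Sorghum bicolor), 3 of the 34129 gene models in the deposited tables. They were chosen by identifier as the orthologues of rice CESA4 (Sobic.003G296400.v3.2), CESA7 (Sobic.001G224300.v3.2) and CESA9 (Sobic.002G205500.v3.2); the suffix is left out below. The tables hold identifiers without names, descriptions or gene lengths, so this assignment was not checked here, and neither the genes' positions nor their sequences were used. RNA came from leaves of 4-week-old plants and was sequenced in 6 libraries. In 3 libraries the plants overexpressed the sorghum floral regulator SbGhd7 (SbGhd7 OE), and in the other 3 they carried an empty vector. The labels give neither the promoter of the transgene nor the number of transformation events, and whether each library stands for a separate plant is also not stated. The p-values below therefore reflect library-to-library spread, part of which may be technical.

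Cellulose is made at the plasma membrane by rosette-shaped complexes whose catalytic subunits are CESA proteins. Plants use different sets of CESA subunits for the thin primary wall of growing cells and for the thick secondary wall laid down in xylem vessels and fibres after growth has stopped. The secondary wall complex needs all of its subunit types, and in rice mutation of CESA4, CESA7 or CESA9 gives brittle culms. In a leaf, secondary walls are found mainly in the veins and the fibre strands beside them.

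Each of the 3 genes was scarcely detected in empty vector leaves and had higher counts in every SbGhd7 OE library than in any empty vector library. After scaling for library size, 27.7% of the 26611 genes with a count had this order of the groups. Summed over the 3 libraries of a group, the CESA4 orthologue had 69 counts in SbGhd7 OE and 13 in empty vector. The CESA7 orthologue had 88 counts in SbGhd7 OE and 7 in empty vector, and the CESA9 orthologue had 84 and 25. The CESA4 and CESA9 orthologues passed the test over all genes, at 6.10-fold and 3.78-fold higher, but they entered that test through their SbGhd7 OE libraries. The CESA7 orthologue did not enter it, since too few libraries reached the count filter. In a fit without the filter the CESA4 and CESA7 orthologues passed and the CESA9 orthologue did not (edgeR adjusted p = 0.016, 0.013 and 0.059). Without SbGhd7 OE replicate 3 neither the CESA4 nor the CESA9 orthologue passed the threshold of the filtered test. The call of the CESA9 orthologue was also lost without SbGhd7 OE replicate 1, empty vector replicate 1 or empty vector replicate 3.

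Library totals lay between 27844391 and 35830080 counts, and SbGhd7 OE replicate 3, the library with the most counts of the CESA genes, had the smallest total. SbGhd7 itself (Sobic.006G004400) had 17295, 10339 and 20367 counts in SbGhd7 OE replicates 1, 2 and 3, against 35, 60 and 35 counts in empty vector replicates 1, 2 and 3, so the libraries matched their labels. Fold changes are SbGhd7 OE over empty vector from edgeR's quasi-likelihood test, with a standard error (SE), and adjusted p-values are Benjamini-Hochberg values over all 20820 genes tested, called under 0.05. By this test 53.3% of all tested genes were called, 28.0% higher and 25.3% lower in SbGhd7 OE. Among the 2399 tested genes with a mean under 1 CPM (counts scaled to a common library size), a range that includes both tested CESA genes, 30.5% were called and 18.5% were called higher.

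The CESA4 orthologue had the steadiest control values. It had 17, 11 and 41 counts in SbGhd7 OE replicates 1, 2 and 3, against 4, 4 and 5 counts in empty vector replicates 1, 2 and 3. The groups did not overlap, an order that 32.4% of tested genes showed in CPM. Within SbGhd7 OE, replicate 3 stood well above the others. In scaled terms this was 0.822 ± 0.584 CPM in SbGhd7 OE and 0.131 ± 0.00394 CPM in empty vector (SD, n = 3 each). A count of 4 has an exact 95% interval of 1.09 to 10.2 counts, for counting error only. The small SD of the controls is therefore not a measure of precision. The log2 fold change was 2.61 (SE 0.672, edgeR adjusted p = 0.011), and 2.60 without a count filter (edgeR adjusted p = 0.016). Without SbGhd7 OE replicate 3 it was 1.88 and missed the threshold (edgeR adjusted p = 0.058), while leaving out any other single library kept the call (edgeR adjusted p between 0.0061 and 0.046).

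The CESA7 orthologue showed the largest ratio between the groups and the lowest control counts. It had 7, 32 and 49 counts in SbGhd7 OE replicates 1, 2 and 3, against 2, 5 and 0 counts in empty vector replicates 1, 2 and 3. SbGhd7 OE replicate 1 lay close to the highest control, and the other SbGhd7 OE libraries lay far above it. The count of 0 has an exact 95% upper limit of 3.69 counts, for counting error only. The means were 1.02 ± 0.753 CPM in SbGhd7 OE and 0.0753 ± 0.0815 CPM in empty vector (SD, n = 3 each). The gene failed the count filter, because only 2 libraries reached the required 0.328 CPM, both from SbGhd7 OE. In the fit without a filter, over 26611 genes of which 41.3% were called and 22.0% were called higher, its log2 fold change was 3.74 (SE 1.02, edgeR adjusted p = 0.013). In the same fit it missed the threshold without SbGhd7 OE replicate 3 (log2 fold change 3.08, edgeR adjusted p = 0.073) and without empty vector replicate 1 (3.66, edgeR adjusted p = 0.056), and passed without any of the others (edgeR adjusted p between 0.0071 and 0.027). Its log2 fold change was 4.89 without empty vector replicate 2, which held 5 of the 7 control counts.

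The CESA9 orthologue had the most control counts of the 3 genes and the smallest fold change. It had 24, 19 and 41 counts in SbGhd7 OE replicates 1, 2 and 3, against 8, 15 and 2 counts in empty vector replicates 1, 2 and 3. The groups did not overlap, as in CPM for 32.4% of tested genes. SbGhd7 OE replicate 2 was only 4 counts above empty vector replicate 2. The means were 0.996 ± 0.439 CPM in SbGhd7 OE and 0.265 ± 0.216 CPM in empty vector (SD, n = 3 each). The log2 fold change was 1.92 (SE 0.709) and passed narrowly (edgeR adjusted p = 0.049). The call was lost without SbGhd7 OE replicate 3 (log2 fold change 1.51, edgeR adjusted p = 0.17) or replicate 1 (1.99, edgeR adjusted p = 0.089), and without empty vector replicate 1 (1.89, edgeR adjusted p = 0.13) or replicate 3 (1.40, edgeR adjusted p = 0.099). It held without empty vector replicate 2 (2.67, edgeR adjusted p = 0.036) and without SbGhd7 OE replicate 2 (2.17, edgeR adjusted p = 0.047). The call was also lost with no count filter (1.91, edgeR adjusted p = 0.059) and with scaling by library totals alone (1.85, edgeR adjusted p = 0.055).

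**Figure D1:**
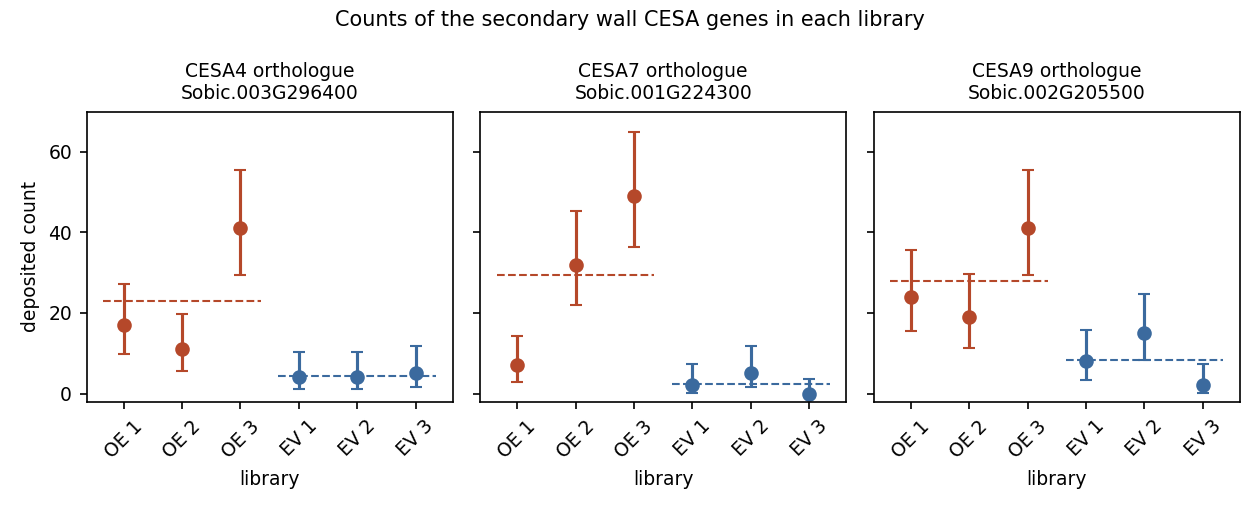
Deposited counts of each secondary wall CESA gene (vertical axis) in the SbGhd7 OE (OE) and empty vector (EV) libraries, with exact 95% Poisson intervals for counting error and the group mean as a dashed line. Every SbGhd7 OE library lies above every empty vector library, an order that 27.7% of the 26611 genes with a count showed in CPM. SbGhd7 OE replicate 3 is the highest for all 3 genes, with 41, 49 and 41 counts.

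Permuting the 6 libraries between the groups (exact, two-sided, on log2 CPM with 0.05 added) gave p = 0.1 for each of the 3 genes, which is as small as 3 against 3 libraries can give. All SbGhd7 OE libraries also lay above all empty vector libraries for 27.7% of the 26611 genes with a count, so this order was common in these data. Counting error alone left wide limits on the ratio of summed, scaled counts. The ratio was 6.16 for the CESA4 orthologue (95% exact interval 3.38 to 12.2), 14.6 for the CESA7 orthologue (6.79 to 37.4) and 3.90 for the CESA9 orthologue (2.47 to 6.36). These intervals leave out the spread between libraries and assume that 1 deposited count is 1 fragment, which the files do not show. On halved values they widened to between 2.73 and 19.2, between 5.46 and 85.7, and between 1.97 and 7.61.

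The CESA4 and CESA9 orthologues entered the test mainly through the SbGhd7 OE libraries. The count filter asked for 0.328 CPM, before scaling, in 3 libraries. For the CESA4 orthologue all 3 SbGhd7 OE libraries and none of the empty vector libraries reached it, and for the CESA9 orthologue all 3 SbGhd7 OE libraries and 1 empty vector library did. Genes this close to the filter are tested only if they are high enough in 1 group, so the number of CESA genes called is not read further.

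**Figure D2:**
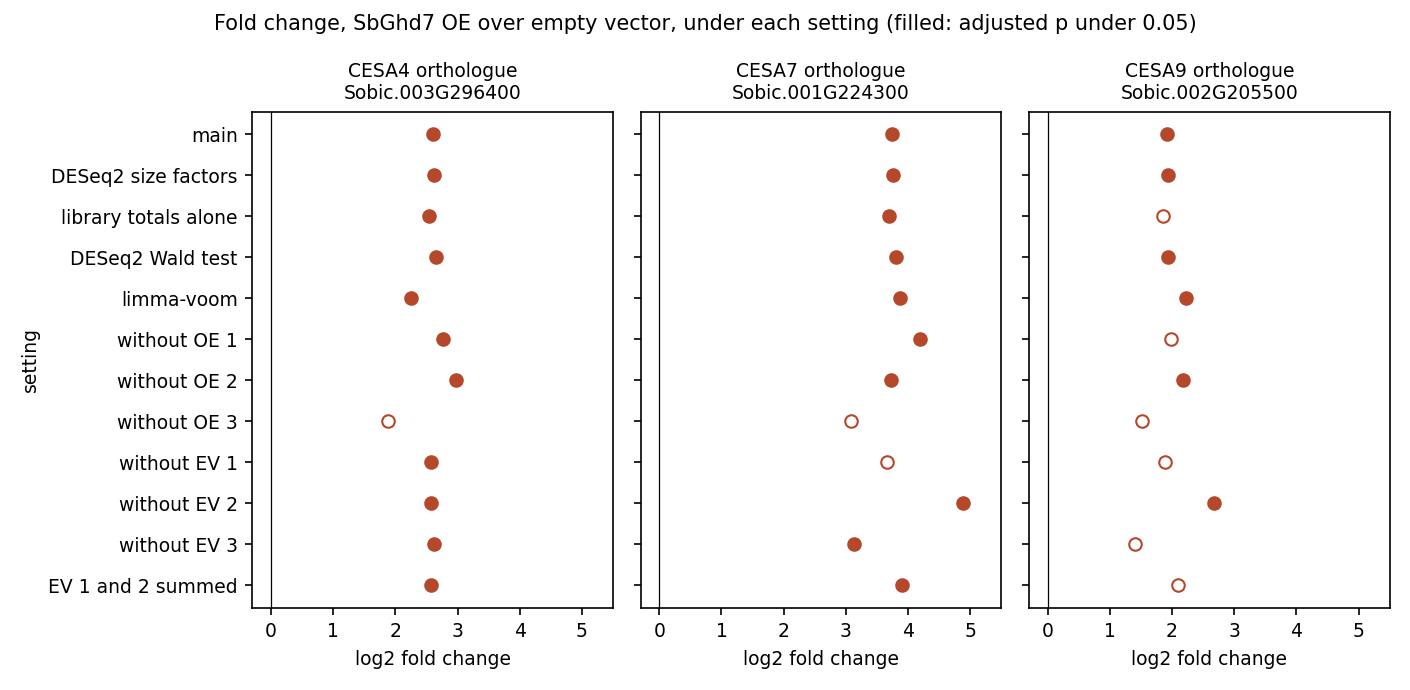
Log2 fold change, SbGhd7 OE over empty vector, of each secondary wall CESA gene (horizontal axis) under a selection of settings (vertical axis). Not drawn are the replicate number as a block, halved values and, for the CESA4 and CESA9 orthologues, no count filter. The CESA9 orthologue lost its call in these settings too. Filled points have an adjusted p under 0.05 and open points do not, and the CESA7 orthologue is shown from fits without a count filter. All values are above 0, and without SbGhd7 OE replicate 3 all 3 points are open, at 1.88, 3.08 and 1.51.

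The summed count of the 3 genes traces the pool of secondary wall CESA transcripts in each library. The sum was 48, 62 and 131 counts in SbGhd7 OE replicates 1, 2 and 3, against 14, 24 and 7 counts in empty vector replicates 1, 2 and 3. As a level it was 2.84 ± 1.63 CPM in SbGhd7 OE and 0.471 ± 0.294 CPM in empty vector (SD, n = 3 each), and the ratio of summed, scaled counts was 6.22. In CPM the sum differed 2.65-fold between the highest and lowest SbGhd7 OE library and 4.10-fold between the highest and lowest empty vector library. In whole leaf tissue, more cells with secondary walls and more transcript per cell cannot be told apart.

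The ratios among the subunits were set by very few counts in the controls. Since gene lengths were not used, a ratio of counts does not say which subunit was more abundant, but it can be compared between libraries. As a share of the summed count, the CESA7 orthologue took 14.6%, 51.6% and 37.4% in SbGhd7 OE replicates 1, 2 and 3, against 14.3%, 20.8% and 0% in empty vector replicates 1, 2 and 3. SbGhd7 OE replicate 1 thus lay within the range of the controls and the other SbGhd7 OE libraries above it. Its exact binomial 95% interval in SbGhd7 OE replicate 1 (6.07% to 27.8%) did not meet those of replicate 2 (38.6% to 64.5%) and replicate 3 (29.1% to 46.3%). On halved values the intervals of replicate 1 and replicate 2 met (4.74% to 37.4% and 31.9% to 68.1%). Whether intervals meet is not a test of a difference, and the balance among the SbGhd7 OE libraries was not tested. In empty vector replicate 3, with 0 of 7 counts, the exact upper limit was 41.0%.

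The other subunits' shares overlapped between the groups. The CESA9 orthologue took 50.0%, 30.6% and 31.3% of the summed count in SbGhd7 OE replicates 1, 2 and 3, against 57.1%, 62.5% and 28.6% in empty vector replicates 1, 2 and 3. The CESA4 orthologue took 35.4%, 17.7% and 31.3% in SbGhd7 OE replicates 1, 2 and 3, against 28.6%, 16.7% and 71.4% in empty vector replicates 1, 2 and 3. The 71.4% in empty vector replicate 3 stands for 5 of 7 counts, with an interval of 29.0% to 96.3%. Pooled over each group, the CESA4, CESA7 and CESA9 orthologues held 28.6%, 36.5% and 34.9% of 241 counts in SbGhd7 OE. In empty vector they held 28.9%, 15.6% and 55.6% of 45 counts. These pooled shares lean on SbGhd7 OE replicate 3, with 131 counts, and on empty vector replicate 2, with 24. The means of the library shares in empty vector were 38.9%, 11.7% and 49.4%, in the same order of genes.

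**Figure D3:**
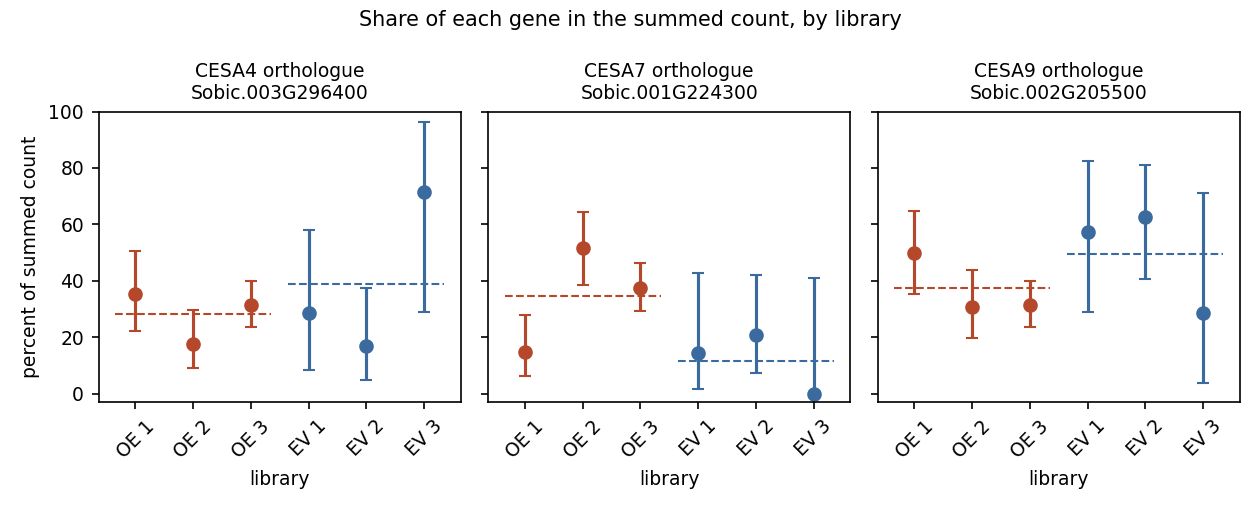
Share of each secondary wall CESA gene in the summed count of the 3 genes (vertical axis, percent) in the SbGhd7 OE (OE) and empty vector (EV) libraries, with exact binomial 95% intervals and the group mean as a dashed line. The intervals of the empty vector libraries, which rest on 14, 24 and 7 counts, span most of the SbGhd7 OE values, and the CESA7 orthologue is at 14.6% in SbGhd7 OE replicate 1 but 51.6% in replicate 2.

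No ratio between a pair of subunits differed detectably between the groups. The log2 ratio of the CESA7 to the CESA9 orthologue was -1.71, 0.74 and 0.25 in SbGhd7 OE replicates 1, 2 and 3, against -1.77, -1.49 and -2.32 in empty vector replicates 1, 2 and 3 (0.5 added to each count). SbGhd7 OE replicate 1 fell inside the control range, and the difference of means was 1.62 (exact two-sided permutation p = 0.2, adjusted over 3 pairs 0.6). For the CESA7 over the CESA4 orthologue the mean log2 ratio was 0.18 ± 1.36 in SbGhd7 OE and -1.34 ± 1.92 in empty vector (SD, n = 3 each; exact permutation p = 0.5, adjusted 0.75). For the CESA4 over the CESA9 orthologue it was -0.42 ± 0.39 in SbGhd7 OE and -0.52 ± 1.50 in empty vector (SD, n = 3 each; exact permutation p = 0.9, adjusted 0.9). The smallest p that 3 against 3 libraries allow is 0.1, so no such difference could pass at this number of libraries.

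The 6 other CESA genes that could be tested were present in the same leaves at far higher counts (not corrected for gene length). They changed in both directions. A list of 8 identifiers was taken from general knowledge of the sorghum CESA family, and since no annotation used here names them, their membership was not checked. Of these, 6 could be tested, of which 4 rose and 2 fell, with a median log2 fold change of 0.40 against 0.00 over all tested genes, of which 53.3% were called. Sobic.002G118700 had 837, 943 and 709 counts in SbGhd7 OE replicates 1, 2 and 3, against 305, 342 and 369 counts in empty vector replicates 1, 2 and 3 (log2 fold change 1.50, SE 0.134, edgeR adjusted p = 6.1e-05). Sobic.001G045700 fell to 40.1 ± 4.15 CPM in SbGhd7 OE, against 64.2 ± 3.69 CPM in empty vector (SD, n = 3 each; log2 fold change -0.68, edgeR adjusted p = 0.0015). Without SbGhd7 OE replicate 1, only 2 of the list were called higher.

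The summed count of the listed identifiers was 6389, 6699 and 6123 in SbGhd7 OE replicates 1, 2 and 3, against 7206, 6447 and 7505 in empty vector replicates 1, 2 and 3. The secondary wall genes together came to 0.751%, 0.926% and 2.14% of that sum in SbGhd7 OE, against 0.194%, 0.372% and 0.0933% in empty vector. CESA genes are related in sequence, and reads of the abundant copies assigned to the scarce ones could add to such small counts. The part of this in the result was not tested. Sobic.002G094600, chosen from the list after its values were seen, had a like pattern at few counts, with 15, 10 and 60 counts in SbGhd7 OE replicates 1, 2 and 3, against 0, 0 and 3 counts in empty vector replicates 1, 2 and 3. It failed the count filter. So did the remaining listed identifier, Sobic.010G183700, with 0, 1 and 5 counts in SbGhd7 OE replicates 1, 2 and 3 and 0 counts in each empty vector library.

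**Figure D4:**
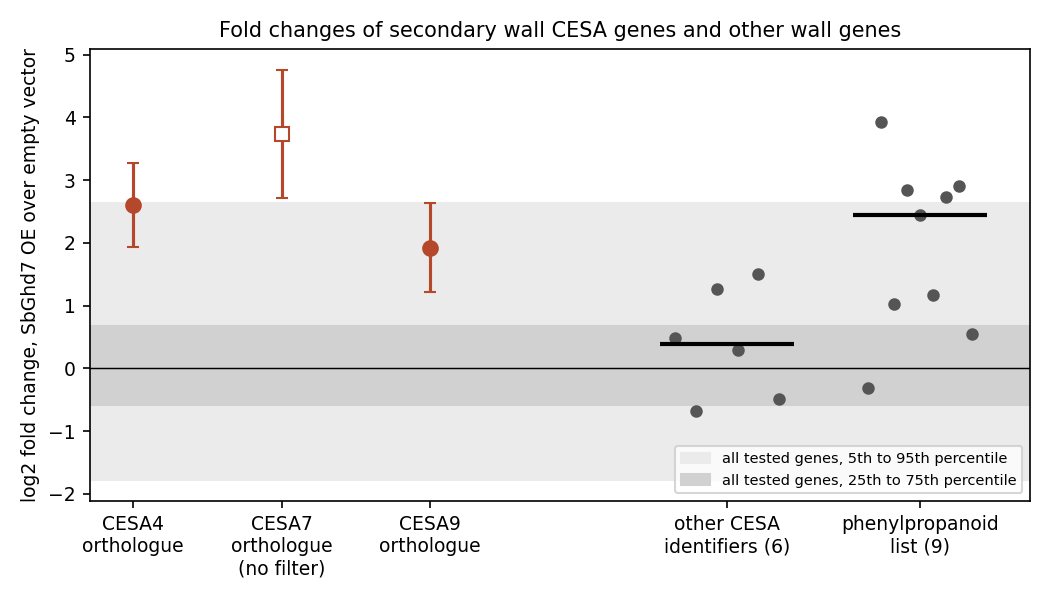
Log2 fold change, SbGhd7 OE over empty vector (vertical axis), of the secondary wall CESA genes with SE (the open square is from the fit without a count filter), of 6 other identifiers listed as CESA genes and of 9 phenylpropanoid genes, with list medians as bars. Grey bands give the range of all tested genes, whose 5th and 95th percentiles are -1.78 and 2.64. Most tested genes were more abundant than the secondary wall CESA genes.

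Lignin, the polymer that fills secondary walls, is built from precursors of the phenylpropanoid pathway. In a list of 9 phenylpropanoid genes, also taken from general knowledge and chosen with earlier results of these data known, 8 rose, none fell and 1 did not pass, where 53.3% of all tested genes were called and 28.0% were called higher. Their median log2 fold change was 2.45, within a range of -0.31 to 3.92. The CESA4 and CESA9 orthologues, at 2.61 and 1.92, lay inside that range, but so did the median of all tested genes. Over all tested genes, 8.38% had a log2 fold change as high as that of the CESA9 orthologue or higher. Most tested genes were more abundant than this gene, and the share among genes as scarce was not taken.

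The likeness of the genes' profiles was described over the libraries. Each gene's log2 CPM over the 6 libraries was centred on its own mean and compared with the mean profile of the 3 genes. The root mean square distance from that mean was 0.495 for the CESA4, 0.569 for the CESA7 and 0.398 for the CESA9 orthologue, and 136, 311 and 43 other tested genes lay nearer to the mean profile than these. The mean profile includes the 3 genes themselves, and at such low counts part of each distance is counting error. The nearest were Sobic.008G059200 (distance 0.216) and Sobic.001G431600 (distance 0.234), whose identifiers the sources used here do not pair with names. Sobic.008G059200 had 249, 338 and 554 counts in SbGhd7 OE replicates 1, 2 and 3, against 86, 111 and 42 counts in empty vector replicates 1, 2 and 3. It shares with the summed count of the secondary wall genes the order of the libraries, highest in SbGhd7 OE replicate 3 and lowest in empty vector replicate 3. It was picked for its nearness to their mean profile, so a shared order largely follows from the choice. For the CESA4 orthologue, empty vector replicate 3 was instead the highest control, at 5 counts. The CESA4 and CESA9 orthologues also had more counts in SbGhd7 OE replicate 1 than in replicate 2, unlike the summed count. With 6 libraries in groups that differ this widely, such likeness is a description of these libraries.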

How the data were processed

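Leaf RNA of 6 libraries was analysed from 1 deposited table per library. Libraries were made with a NEBNext Ultra RNA kit from TRIzol-extracted, DNase-treated RNA, per the labels' protocols. The tools were HISAT2 2.2.1, StringTie 2.2.1 and DESeq2 2.11.40.7, per the submitters' processing notes; no source used here gives the role of each, the genome build, the strandedness or the filtering. The values the authors deposited were treated as estimated counts: whole numbers, unscaled, with 2.91 to 3.57 times as many genes at 2 as at 1, so a count may not be 1 fragment. No identifier matched the reference table of 32945 genes. Without strand, overlapping and antisense genes cannot be told apart.

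Genes were filtered with filterByExpr, scaled by TMM and tested with edgeR 4.0.16 (R 4.3.3, quasi-likelihood, robust, group as the only term). DESeq2 1.42.0 and limma-voom (limma 3.58.1) were alternatives. SE is the log2 fold change divided by the square root of F. Intervals and limits cover counting error only. Groups and replicate numbers come from titles. Empty vector replicates 1 and 2 were the closest pair (median chi-square per gene 1.98, other pairs 4.07 to 7.56) and were kept separate. The genes, lists and tests were chosen with earlier results of these data known. Named genes are the 3 CESA genes, SbGhd7, members of the list of other CESA identifiers, and the 2 tested genes nearest the mean profile (prior count of 2). Wall gene lists defined by description could not be built.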

Additional observations from a re-analysis of the deposited data

How the results depend on the processing

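Every fit gave each of the 3 genes a higher level in SbGhd7 OE, but the calls were not stable, and leaving out SbGhd7 OE replicate 3 ended all of them. With 1 library left out, the log2 fold change lay between 1.88 and 2.97 for Sobic.003G296400, between 1.40 and 2.67 for Sobic.002G205500, and, without a filter, between 3.08 and 4.89 for Sobic.001G224300 (3.66 without empty vector replicate 1, call lost); between 0 and 3 of the genes were called, against 2. The call of Sobic.002G205500 (1.92) was lost with library totals alone (1.85), no filter (1.91) and the replicate number as a block (2.01). It was also lost with empty vector replicates 1 and 2 summed (2.10) and with halved values without a filter (1.85, edgeR adjusted p = 0.050). It was kept with DESeq2 size factors (1.93, edgeR adjusted p = 0.048). The DESeq2 Wald test (1.93, adjusted p = 0.032) and limma-voom (2.23, adjusted p = 0.032) kept it too. Both of these tools also called Sobic.003G296400 and, without a filter, Sobic.001G224300. The number called was 1 with library totals alone and with the block, and 0 at an adjusted p under 0.01. Replicate numbers did not pair the libraries (correlations of 0.005, -0.055 and -0.105 between deviations of same-numbered libraries); the block ended no other call of the 3 genes. Of 11087 changed genes, 5798 also had a log2 fold change of 1 or more in size. With a pseudocount of 10, the difference in the log2 ratio of the CESA7 to the CESA9 orthologue was 0.44, against 1.62. For the CESA7 over the CESA4 orthologue it was 0.42, against 1.52. The difference in the share of Sobic.001G224300 was 7.34 percentage points, against 22.8. A pseudocount of 10 is larger than most control counts of these genes. Adding it draws ratios and shares together by arithmetic. No value of the 3 genes was obtained at a CPM of 1 or more in 3 libraries, which none reached, and halving took Sobic.003G296400 and Sobic.002G205500 below the usual filter. The unfiltered fits of Sobic.001G224300 and the halved unfiltered fits were chosen after seeing the data.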
